A study of Mus musculus with 14 samples.

Results

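Trp53, the gene of the transcription factor p53, and 9 genes that p53 is known to switch on for cell cycle arrest, stress protection and feedback were followed in the embryonic mouse bladder urothelium, the epithelium that lines the bladder. The 10 genes were taken by name (Trp53, Cdkn1a, Mdm2, Ccng1, Trp53inp1, Sesn1, Sesn2, Btg2, Zmat3 and Aen). All 10 were among the 20308 gene symbols of the deposited table, and all 10 passed the filter on low counts that left 13011 genes. The urothelium came from C57BL/6; 129S4 embryos at embryonic day 15.5, separated from the stroma with trypsin, and each of the 14 polyA RNA-seq libraries was made from a lysate of several pooled embryos. The Cre-negative group (n = 7) held littermates whose Dnmt1 alleles the labels do not give. The Control group (n = 2) carried Shhcre on 1 allele and 1 floxed Dnmt1 allele (Shhcre/+; Dnmt1flox/+). The Dnmt1cKO group (n = 5) carried Shhcre on 1 allele and floxed Dnmt1 on both (Shhcre/+; Dnmt1flox/flox). Cre is expressed from the Shh locus, so that both Cre-carrying groups also have an altered Shh allele, and deletion is limited to cells that have expressed Shh. Dnmt1 encodes the methyltransferase that copies DNA methylation after replication.

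The p53 protein is kept scarce by Mdm2, a ubiquitin ligase that marks it for destruction, and is stabilised after DNA damage and other stress. Its activity is therefore read from its target genes rather than from the level of its own transcript. Cdkn1a encodes p21, which inhibits cyclin-dependent kinases and stops the cell cycle. Mdm2 is itself a p53 target and closes a negative feedback loop, and Ccng1 (cyclin G1) acts on the same loop through a phosphatase that works on Mdm2. In cultured mouse fibroblasts, loss of Dnmt1 is known to activate p53.

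Sequences upstream of the genes are shown because p53 binds DNA through a pair of decamers, the p53 half-sites, each of which reads as the same motif on both strands. RefSeq promoter windows on GRCm38.p6, from 250 bases before to 50 after an annotated start, were found for 8 of the 10 genes, in 11 windows. A half-site was counted only where every base fits RRRCWWGYYY (R is A or G, W is A or T, Y is C or T), with no mismatch allowed. Such a decamer was present in 7 of the 11 windows, from 6 genes, against 8.36% of all 32851 windows. The 2 Aen windows overlap and hold the same decamer, which is counted in each. Apart from Trp53 the genes were chosen as known p53 targets, so they are no random draw from all windows, and no test was made. The distal of the 2 Cdkn1a windows (chromosome 17, 29090729 to 29091028, plus strand) held 2 half-sites at most 13 bases apart, an arrangement found in 0.0731% of all windows, or 24 of them. Its start lies 2790 bases upstream of the start of the second Cdkn1a window, which held no half-site. The Ccng1 window (chromosome 11, 40755237 to 40755536, minus strand) held 1 exact half-site. Both windows are given 5′ to 3′ with the exact half-sites in capitals. Decamers that miss the motif at 1 base stay in lower case. Among them are agacctgccc, directly before the capitals in Ccng1, and tgacatgttc, directly after GAACATGTCT in Cdkn1a.
Cdkn1a, distal window: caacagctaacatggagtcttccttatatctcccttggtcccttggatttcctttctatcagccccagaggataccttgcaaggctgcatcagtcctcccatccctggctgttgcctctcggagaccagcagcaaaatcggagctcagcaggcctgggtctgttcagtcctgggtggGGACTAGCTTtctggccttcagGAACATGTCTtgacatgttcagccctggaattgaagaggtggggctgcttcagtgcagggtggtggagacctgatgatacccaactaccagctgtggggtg
Ccng1: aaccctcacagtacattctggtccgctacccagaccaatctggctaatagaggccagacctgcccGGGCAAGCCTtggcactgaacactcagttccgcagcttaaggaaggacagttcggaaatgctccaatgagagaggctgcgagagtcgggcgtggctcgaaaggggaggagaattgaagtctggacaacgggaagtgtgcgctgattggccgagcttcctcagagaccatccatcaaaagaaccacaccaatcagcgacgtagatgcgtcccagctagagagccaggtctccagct

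The half-sites of the other 4 genes are given with 10 bases on either side for comparison with those of Cdkn1a and Ccng1, again with the decamer in capitals. They lay at 177 to 186 bases before the start in Mdm2, at 66 to 75 in Trp53, at 164 to 173 before the second start of Sesn1, and at 112 to 121 before the second start of Aen, which is 11 to 20 bases after its first.
Mdm2: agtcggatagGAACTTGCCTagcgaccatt
Trp53: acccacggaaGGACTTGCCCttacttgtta
Sesn1: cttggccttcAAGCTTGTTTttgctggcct
Aen: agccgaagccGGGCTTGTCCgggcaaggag
The windows of Btg2 and Sesn2 and the first window of Sesn1 held none, which says only that the letters are not in these 300 bases. The 11 windows had a median of 23 CpG dinucleotides, against 7 over all windows. A match is a description of the sequence, and binding was not measured.

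Library totals ran from 2520509 to 13131921 expected counts. The targeted gene was examined first. Dnmt1 stood between 41.3 and 192 CPM in Cre-negative libraries (counts per 1000000 on the TMM-scaled library size), at 97.4 and 106 CPM in the Controls, and at 9.99, 26.7, 123, 31.2 and 49.1 CPM in Dnmt1cKO libraries 1 to 5. The libraries labelled Dnmt1cKO 3 and Dnmt1cKO 5 thus lay inside the Cre-negative range, and the 3 others below it. The calls are also given without both. Dnmt1 had a log2 fold change of -1.31 ± 0.51 (SE) relative to Cre-negative libraries (adjusted p = 0.249), which did not pass the threshold of 0.05. All 17 urothelial markers were detected in each group, with summed levels of 12050 to 21090 CPM in Cre-negative, 8096 and 13660 CPM in Control, and 5772 to 17050 CPM in Dnmt1cKO libraries. Markers of stroma and smooth muscle (18 genes) summed to 184.5 to 3358 CPM, to 3495 and 12840 CPM, and to 311.7 to 11980 CPM in the same groups. In such bulk samples fewer cells of a type and less RNA per cell cannot be told apart.

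Against Cre-negative urothelium, 3 of the 10 genes rose in Dnmt1cKO urothelium and 0 fell. They were Ccng1, Trp53inp1 and Cdkn1a. Over all 13011 tested genes 0.915% rose and 0.184% fell by the same rule, edgeR's quasi-likelihood test with a Benjamini-Hochberg adjusted p under 0.05. All 10 log2 fold changes lay above 0, where 47.9% of all tested genes did. Their median was 0.53, against -0.04 over all tested genes. Those of Trp53, Sesn1 and Sesn2 lay below 0 in some other fits. For Sesn1 this was so under 6 of 13 other settings and in 5 of 14 fits with 1 library left out. At an unadjusted p under 0.05 the count was 4, with Aen as the fourth, and 6.66% of all genes were higher by that rule. With DESeq2 4 of the 10 genes were called, where 2.46% of all tested genes rose, and with limma-voom 2, where 1.25% did. Without Dnmt1cKO 3 and 5, a setting chosen after seeing the data, 2 were called, where 0.677% of all genes rose. They were Ccng1 (log2 fold change 1.58 ± 0.28, adjusted p = 0.00376) and Trp53inp1 (2.43 ± 0.42, adjusted p = 0.00332), while Cdkn1a had 2.70 ± 0.73 (adjusted p = 0.105).

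**Figure D1:**
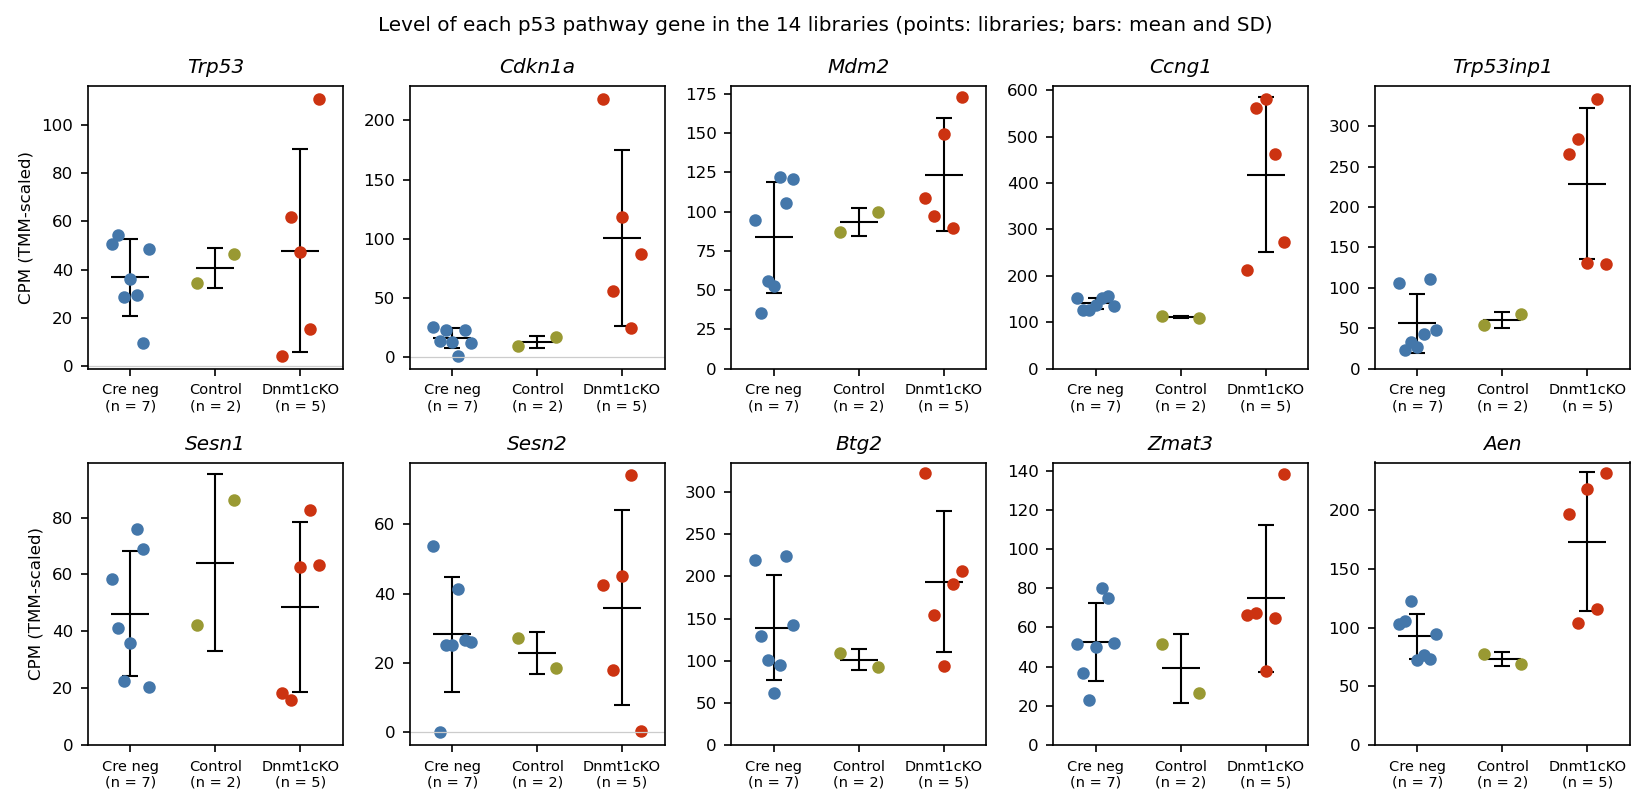
Level of each of the 10 genes in CPM (vertical axis, linear) in every library of the 3 groups. Points are libraries, in replicate order within a group, and bars give the mean and SD. Ccng1 and Trp53inp1 are the genes whose 5 Dnmt1cKO libraries lie above the 9 others.

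Trp53 itself was not called, and its Dnmt1cKO libraries varied widely. It had 9.56, 36.1 and 54.6 CPM as the lowest, median and highest of the Cre-negative libraries and 34.6 and 46.5 CPM in the Controls. In Dnmt1cKO libraries 1 to 5 it had 4.28, 61.7, 47.1, 15.5 and 111 CPM. The Dnmt1cKO libraries thus lay on both sides of the Cre-negative range, with libraries 2 and 5 above it and library 1 below it. Relative to Cre-negative its log2 fold change was 0.38 ± 0.66 (95% interval -0.98 to 1.74, adjusted p = 0.899), and it turned to -0.19 without Dnmt1cKO 5. Dnmt1cKO 1, with the lowest Trp53 of all libraries, had the highest Cdkn1a. The gene is annotated on chromosome 11 from 69580359 to 69591873 on the plus strand (GENCODE M21, GRCm38, as for the other gene positions).

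Ccng1 gave the smallest adjusted p of the 10 genes. The Cre-negative libraries had a lowest value of 126, a median of 136 and a highest value of 156 CPM, and the Controls had 113 and 109 CPM. Dnmt1cKO libraries 1 to 5 had 213, 561, 580.1, 463 and 274 CPM. All 5 lay above the 9 others, as did the Dnmt1cKO libraries for 0.684% of all tested genes. The mean rose from 140 ± 12.6 CPM to 418 ± 167 CPM (SD, n = 7 and 5), 2.98-fold by the fit (log2 fold change 1.58 ± 0.27, adjusted p = 0.00138). The Dnmt1cKO libraries ranged from 1.56 to 4.26 times the Cre-negative median. The call held with any 1 library left out, at adjusted p of 0.000253 to 0.00582, and was lost with the stroma marker mean as a covariate (adjusted p = 0.0896) and with the replicate block (adjusted p = 0.0743). The Ccng1 gene spans 40748552 to 40755311 of chromosome 11, minus strand.

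Trp53inp1 encodes a stress-induced protein that assists p53 and autophagy. Its Cre-negative libraries ran from 23.5 through a median of 43.3 to 111 CPM, and the Controls had 53.3 and 67.2 CPM. Dnmt1cKO libraries 1 to 5 had 265, 284, 131, 334 and 129.6 CPM, each above every one of the 9 others. The mean rose from 55.8 ± 36.9 to 229 ± 93.4 CPM, 4.10-fold by the fit (log2 fold change 2.03 ± 0.41, adjusted p = 0.00872). The closest values were those of Dnmt1cKO 5, at 129.6 CPM, and Cre-negative library 6, at 111 CPM. Trp53inp1 kept its call under all 13 other settings and with any 1 of the 14 libraries left out, with adjusted p between 0.000152 and 0.0407. It lies on chromosome 4 from 11156431 to 11174379 on the plus strand.

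Cdkn1a showed the highest fold change of the 10 genes and a wide spread. In Cre-negative libraries it ran from 1.03 through a median of 13.3 to 24.9 CPM, and the Controls had 9.12 and 16.5 CPM. Dnmt1cKO libraries 1 to 5 had 218, 55.6, 118, 24.2 and 87.4 CPM. Libraries 1, 2, 3 and 5 exceeded every other library, and Dnmt1cKO 4, at 24.2 CPM (exact 95% Poisson interval 19.7 to 29.4, counting error only), lay just under the highest Cre-negative library. The mean rose from 15.6 ± 8.45 to 101 ± 74.5 CPM, 6.45-fold by the fit (log2 fold change 2.69 ± 0.66, adjusted p = 0.0401). This call stood close to the threshold: it was lost when any 1 of 9 libraries was left out (Cre-negative 1, 2, 3, 4, 6 or 7, and Dnmt1cKO 1, 3 or 5). The adjusted p was highest, 0.155, without Dnmt1cKO 1, at a log2 fold change of 2.19. It was also lost without the 3 shallowest libraries (Cre-negative 2, Dnmt1cKO 1 and Dnmt1cKO 5; log2 fold change 2.07 ± 0.82, adjusted p = 0.277). Cdkn1a lies on chromosome 17 from 29090976 to 29100727 on the plus strand, and 273 bases of its exons overlap an antisense gene.

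Mdm2 (minus strand of chromosome 10, 117688875 to 117710758) and Aen (plus strand of chromosome 7, 78895854 to 78911209), a feedback gene and a nuclease that enhances apoptosis, lay higher on average without a call. Mdm2 had 35.5, 94.4 and 122 CPM as the lowest, median and highest of the Cre-negative libraries and 86.9 and 99.9 CPM in the Controls. In Dnmt1cKO libraries 1 to 5 it had 108.5, 97.0, 149.6, 89.4 and 173 CPM, so that libraries 3 and 5 passed the Cre-negative range and the others lay within it. Its log2 fold change was 0.56 ± 0.37 (95% interval -0.20 to 1.31, adjusted p = 0.572). Aen had 72.1, 94.6 and 123 CPM in Cre-negative libraries, 77.4 and 69.0 CPM in Controls, and 197, 104, 218, 116 and 232 CPM in Dnmt1cKO libraries 1 to 5. Dnmt1cKO libraries 1, 3 and 5 were above the Cre-negative range and libraries 2 and 4 within it. The log2 fold change of Aen was 0.90 ± 0.31 (95% interval 0.26 to 1.55, adjusted p = 0.177), and DESeq2 called it (0.96 ± 0.31, adjusted p = 0.0443).

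Btg2, an antiproliferative partner of mRNA deadenylases, and Zmat3, an RNA-binding zinc finger protein gene, overlapped between the groups. Btg2 is annotated at 134075170 to 134079120 of chromosome 1 and Zmat3 at 32334792 to 32366014 of chromosome 3, both on the minus strand. Btg2 ran from 61.7 to 225 CPM in Cre-negative libraries, with a median of 129 CPM, and stood at 110 and 92.1 CPM in Controls. Dnmt1cKO libraries 1 to 5 had 322, 154, 94.3, 191 and 207 CPM, and library 1 was the one above the Cre-negative range (log2 fold change 0.48 ± 0.35, adjusted p = 0.635). Btg2 is also known as an immediate early gene. Among 12 tested immediate early genes 1 rose by edgeR, where 0.915% of all tested genes did. It was Jun, from 20.3 ± 15.4 to 135 ± 37.8 CPM (adjusted p = 0.0211), with 45.95 and 162.2 CPM in the Controls. Zmat3 ran from 23.0 to 79.9 CPM in Cre-negative libraries, with a median of 51.8 CPM, and stood at 51.4 and 26.7 CPM in Controls. Dnmt1cKO libraries 1 to 5 had 66.2, 67.5, 37.8, 64.8 and 138 CPM, of which library 5 was above the Cre-negative range (log2 fold change 0.51 ± 0.46, adjusted p = 0.737). Without Dnmt1cKO 5 the log2 fold change of Zmat3 was 0.17.

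The sestrins, stress proteins that restrain the growth kinase mTOR, had no calls. Sesn1 is annotated at 41809935 to 41908424 of chromosome 10, plus strand, and Sesn2 at 132492032 to 132510501 of chromosome 4, minus strand. Sesn1 had 20.4, 41.3 and 76.0 CPM as the lowest, median and highest of the Cre-negative libraries, 42.2 and 86.3 CPM in the Controls and 18.3, 15.7, 62.8, 82.6 and 63.5 CPM in Dnmt1cKO libraries 1 to 5. Dnmt1cKO libraries 1 and 2 lay below the Cre-negative range and library 4 above it (log2 fold change 0.07 ± 0.56, 95% interval -1.08 to 1.22, adjusted p = 0.988). Sesn2 had 0 counts in Cre-negative library 2, which allows up to 1.02 CPM at 3 counts, and 1 count in Dnmt1cKO 5, with 17.9 to 74.2 CPM in the other 4 Dnmt1cKO libraries and 25.2 to 53.9 CPM in the other 6 Cre-negative libraries. Its log2 fold change was 0.34 ± 0.92 (95% interval -1.56 to 2.25, adjusted p = 0.947). Sesn2 is also a target of the stress factor ATF4, and of 11 tested ATF4 targets 0 were called by edgeR, with 2 higher at an unadjusted p under 0.05 (6.66% of all tested genes were) and a median log2 fold change of 0.51, against -0.04 over all tested genes.

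**Figure D2:**
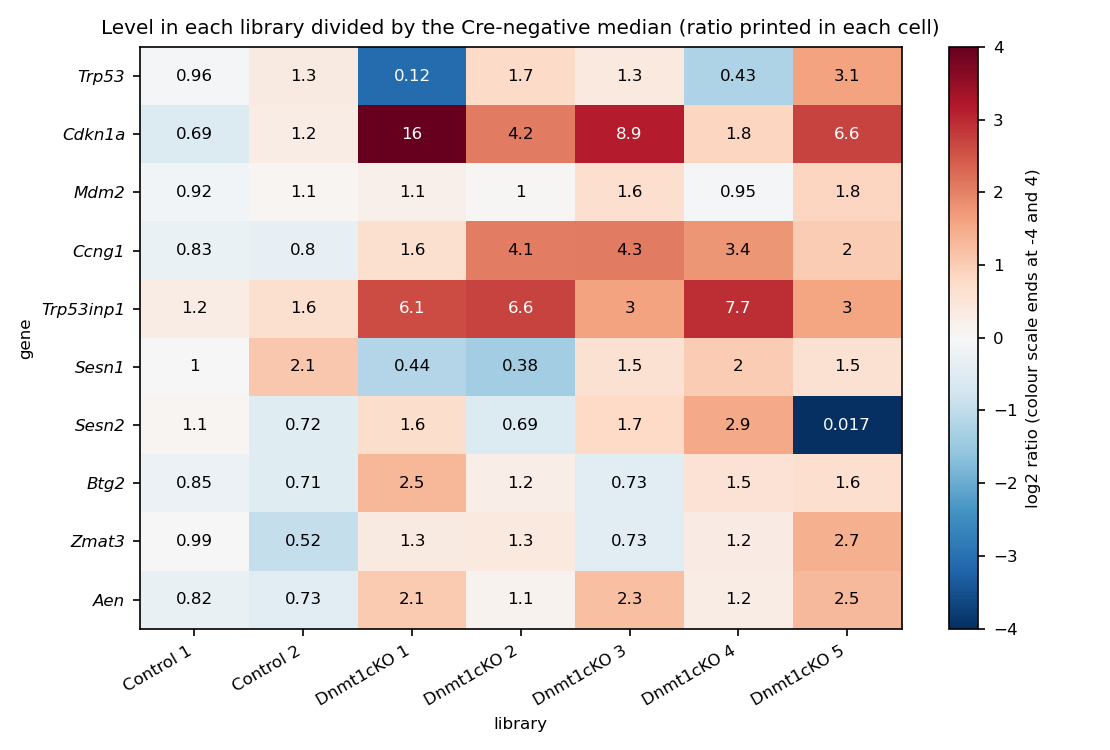
Level of each gene (rows) in the 2 Control and 5 Dnmt1cKO libraries (columns) divided by the median of the 7 Cre-negative libraries. The ratio is printed in each cell and coloured on a log2 scale. Cdkn1a ranges from 1.82 to 16.4 and Trp53inp1 from 2.99 to 7.72 over the Dnmt1cKO libraries, in different orders.

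The Dnmt1cKO libraries shared the rise of Ccng1 and Trp53inp1 and differed in the other genes. Of the 10 genes, 5, 4, 5, 4 and 7 lay above the Cre-negative range in Dnmt1cKO libraries 1 to 5, where 16.1% to 23.1% of all tested genes did so. In Control 1 the count was 0, and in Control 2 it was 1 (Sesn1), against 9.2% and 16.6% of all genes. Dnmt1cKO 1 had the highest ratio of Cdkn1a to the Cre-negative median (16.4) and the lowest of Ccng1 (1.56). Dnmt1cKO 4 had the lowest ratio of Cdkn1a (1.82) and the highest of Trp53inp1 (7.72). Dnmt1cKO 3, in which Dnmt1 was at 123 CPM, had Cdkn1a at 8.88, Ccng1 at 4.26 and Trp53inp1 at 3.02 times the Cre-negative median. Without Dnmt1cKO 3, 2 of the 10 genes were called, Ccng1 and Trp53inp1, and Cdkn1a had an adjusted p of 0.0662.

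Levels were compared between genes per kilobase of merged exon. In Cre-negative urothelium the order by median was Btg2 (47.1 CPM per kilobase), Ccng1 (38.8), Mdm2 (30), Trp53 (19.3), Aen (18.4), Sesn1 (10.4), Trp53inp1 (8.01), Sesn2 (7.46), Zmat3 (6.64) and Cdkn1a (4.89). Each gene overlapped its neighbour in this order in its range over the 7 libraries. In Dnmt1cKO urothelium Ccng1 came first, at a median of 132 CPM per kilobase, followed by Btg2 (69.6), Trp53inp1 (49.1), Aen (38.3), Mdm2 (34.5), Cdkn1a (32.2), Trp53 (25.2), Sesn1 (15.8), Sesn2 (12.2) and Zmat3 (8.49), and neighbours again overlapped. Merged exon length takes no account of which isoforms were present.

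Dnmt1cKO and Control urothelium both carried Shhcre and differed, by label, in whether 1 or both Dnmt1 alleles were floxed. With 2 Control libraries it called 0 of the 10 genes by edgeR, where 0.177% of all tested genes rose. At an unadjusted p under 0.05 4 genes were higher, namely Ccng1, Trp53inp1, Cdkn1a and Aen, where 1.71% of all tested genes were, and DESeq2 and limma-voom each called 1, Ccng1, where 0.692% and 0.453% of all genes rose. In these 4 genes all 5 Dnmt1cKO libraries lay above both Controls, as in 2.6% of all tested genes. The log2 fold changes were 1.91 ± 0.44 for Ccng1 (adjusted p = 0.0812), 1.93 ± 0.66 for Trp53inp1 (0.49), 2.97 ± 1.10 for Cdkn1a (0.506) and 1.24 ± 0.48 for Aen (0.525). Ccng1 passed the threshold with DESeq2 (adjusted p = 9.32e-05), with limma-voom (0.0144), with the stroma marker mean as a covariate (0.0267), without the 3 shallowest libraries (0.0056), and without Dnmt1cKO 1 (0.0238) or Dnmt1cKO 5 (0.0472). The other members, Trp53, Mdm2, Sesn1, Sesn2, Btg2 and Zmat3, had log2 fold changes of -0.40 to 0.94. Of the 10 genes 9 had a log2 fold change above 0, where 49.4% of all tested genes did. This comparison shares its Dnmt1cKO libraries with the one against Cre-negative, so that the 2 are not independent.

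**Figure D3:**
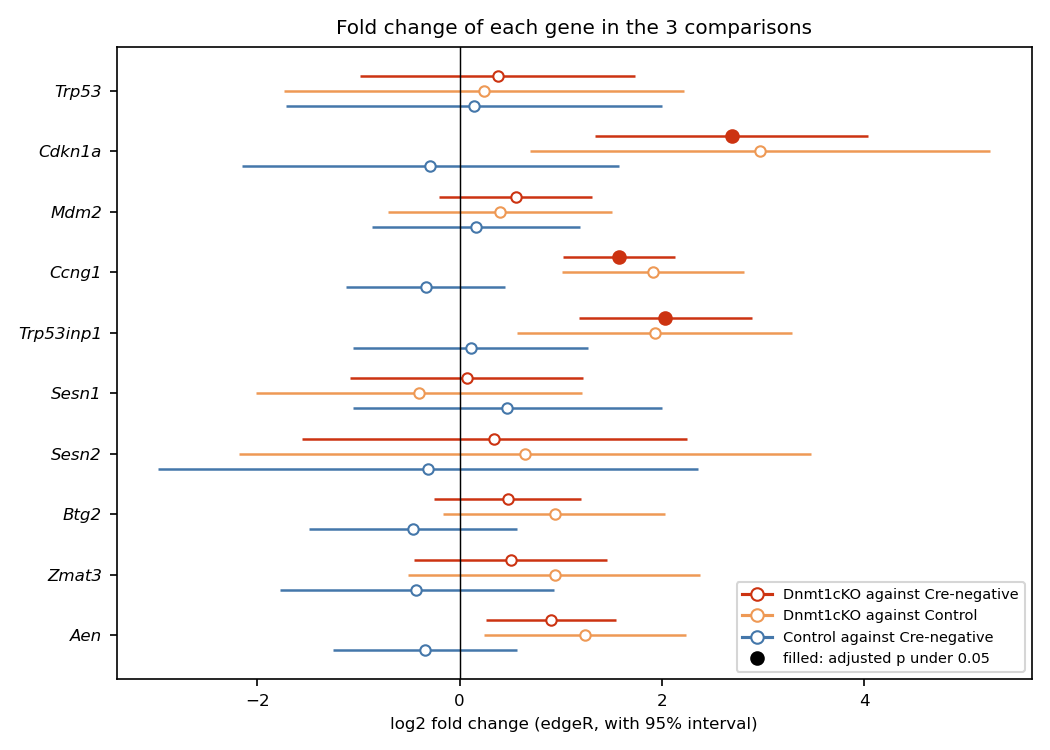
Log2 fold change of each gene (horizontal axis) with its 95% interval in the 3 comparisons, from 1 edgeR fit of 14 libraries. Filled points have an adjusted p under 0.05, and they are Cdkn1a, Ccng1 and Trp53inp1 for Dnmt1cKO against Cre-negative.

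Control and Cre-negative urothelium differed, by label, in Shhcre, and whether they differed in Dnmt1 alleles is not given. None of the 10 genes was called by edgeR, where 0.0538% of all tested genes were. With DESeq2 and limma-voom 0 of the 10 were called, where 0.108% and 0.307% of all tested genes rose. Over all genes DESeq2 also called 13 lower, and limma-voom 0. By edgeR 0 of the 10 had an unadjusted p under 0.05, where 3.49% of all tested genes were higher and 0.177% lower. Of the 10 genes 4 had a log2 fold change above 0, against 46.4% of all tested genes. The log2 fold changes ran from -0.46 for Btg2 to 0.47 for Sesn1. Ccng1 stood at 113 and 109 CPM in the Controls, below all 7 Cre-negative libraries, as did the Controls for 1.9% of all tested genes, at a log2 fold change of -0.33 ± 0.38 (95% interval -1.12 to 0.45, adjusted p = 1). With 2 Controls the intervals were wide, and for Cdkn1a the interval ran from -2.15 to 1.58.

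Tissue composition moved with the groups. Of 18 stroma and smooth muscle markers, 17 were positive in Dnmt1cKO against Cre-negative, with a median log2 fold change of 2.11, against -0.04 over all tested genes. Over all tested genes 47.9% were positive. By edgeR 2 were called (Tagln and Myh11), where 0.915% of all tested genes rose. At an unadjusted p under 0.05, 11 were higher, where 6.66% of all tested genes were. In Control against Cre-negative 17 were positive, where 46.4% of all tested genes were, with a median of 2.67. There 0 were called, where 0.0538% of all tested genes rose, and 11 were higher by the unadjusted rule, where 3.49% were. In Dnmt1cKO against Control 5 were positive and 13 negative, with a median of -0.57, against 0 over all tested genes. The marker mean was 1.69 to 4.76 log2 CPM in Cre-negative libraries. It was 5.35 and 7.01 in the Controls. For Dnmt1cKO libraries 1 to 5 the means were 1.99, 4.62, 6.95, 6.55 and 4.65. The Controls, with high stroma means, had the lowest Ccng1 of all libraries. Dnmt1cKO 1, with a low one, had Ccng1 at 213 CPM and Trp53inp1 at 265 CPM, above all Cre-negative libraries. Within the Dnmt1cKO group, library 1, of lowest stroma mean, had the lowest Ccng1, and library 3, of highest, had the highest (580.1 CPM). Dnmt1cKO libraries 2, 4 and 5 had Ccng1 at 561, 463 and 274 CPM. With the stroma mean as a covariate Ccng1, which lost its call, had a log2 fold change of 1.2 ± 0.31 (adjusted p = 0.0896), while Trp53inp1 (2.20 ± 0.48, adjusted p = 0.027) and Cdkn1a (3.15 ± 0.71, adjusted p = 0.0322) kept theirs. Without the 3 libraries of highest stroma mean (Control 2, Dnmt1cKO 3 and Dnmt1cKO 4), a setting chosen after seeing the data, all 3 were called, at adjusted p of 0.0242 for Ccng1, 0.0226 for Trp53inp1 and 0.0275 for Cdkn1a. Endothelial markers (8 genes) summed to 0.3457 to 24.85 CPM in Cre-negative, 18.86 and 62.49 CPM in Control, and 0 to 134.9 CPM in Dnmt1cKO libraries. Immune markers (8 genes) summed to 0.09036 to 10.23, 9.881 and 37.72, and 0 to 80.09 CPM in the same groups. Each of these genes was at 0 in at least 1 Cre-negative and 1 Dnmt1cKO library. Of 7 tested endothelial genes 5 were positive in Dnmt1cKO and 7 in Control against Cre-negative (medians 1.24 and 2.36). Of 5 tested immune genes 3 and 5 were (medians 1.82 and 2.06). Erythroid markers summed to 63.7 to 364.6 CPM in Cre-negative libraries, to 421.5 and 1154 CPM in Controls and to 161.5 to 1730 CPM in Dnmt1cKO libraries. Against Cre-negative 5 of 5 tested erythroid genes were positive, where 47.9% of all tested genes were. By edgeR 4 were higher at an unadjusted p under 0.05, where 6.66% of all tested genes were. Of the 5 genes 0 were called, where 0.915% of all tested genes rose. In Control against Cre-negative 5 of 5 were positive too, with a median of 1.64. Of the 17 urothelial markers 15 had a negative log2 fold change against Cre-negative, with a median of -0.47, against -0.04 over all tested genes. By edgeR 0 were called, where 0.184% of all tested genes fell, and 6 were lower at an unadjusted p under 0.05. The share of all tested genes lower by that unadjusted rule is not given here. The part of these cells in the results was not tested beyond the values given here.

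**Figure D4:**
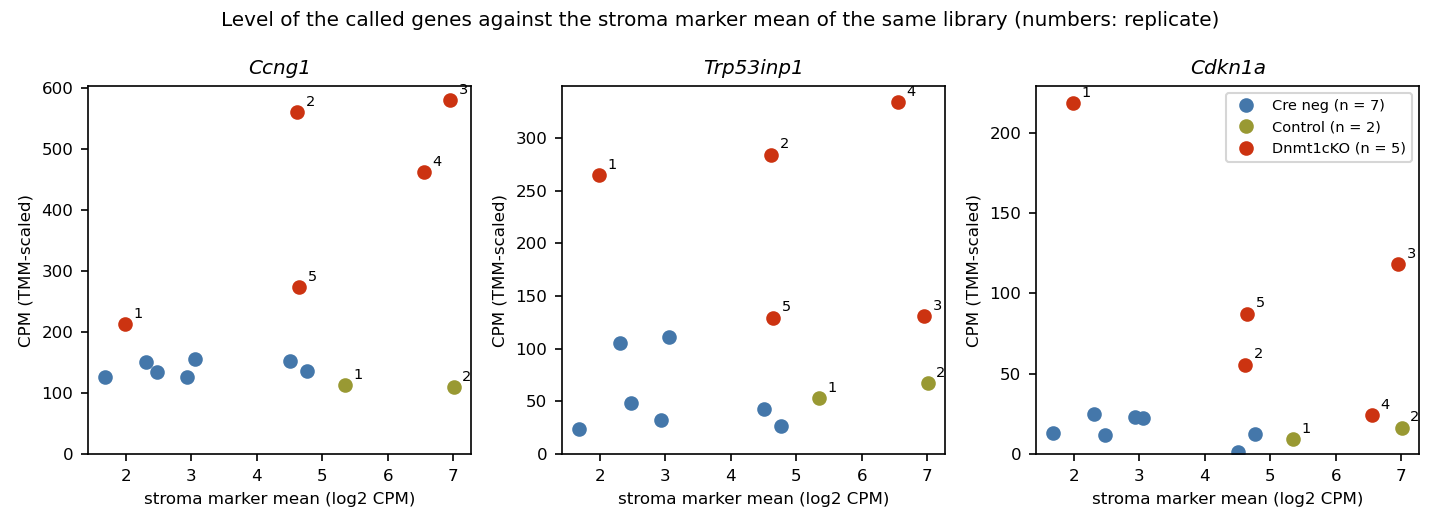
Level of Ccng1, Trp53inp1 and Cdkn1a in CPM (vertical axes, linear) against the mean log2 CPM of 18 stroma and smooth muscle markers in the same library. Numbers beside points are replicate numbers. The Controls, at stroma means of 5.35 and 7.01, lie below the Cre-negative libraries in Ccng1 and within their range in Trp53inp1 and Cdkn1a. Dnmt1cKO 1, at 1.99, lies above the Cre-negative libraries in all 3 genes. Within the Dnmt1cKO group library 1 has the lowest Ccng1, and library 3, at a stroma mean of 6.95, has the highest.

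Other genes of the pathway were described from lists chosen by function. Of 31 tested p53 targets outside the 10, 2 rose and 0 fell against Cre-negative by edgeR, where 0.915% of all genes rose. Their log2 fold changes were positive in 23 and negative in 8, with a median of 0.50, against -0.04 over all genes. At an unadjusted p under 0.05, 6 were higher, where 6.66% of all tested genes were. By the same rule 1 was lower, Plk3 (log2 fold change -7.62 ± 2.63, adjusted p = 0.18). The share of all genes lower by that rule is not given. The interval of the Plk3 change was wide, from -13.09 to -2.16. The levels of Plk3 in the libraries are not given, so the size of its change cannot be judged here. Pmaip1 (Noxa, a BH3-only protein of apoptosis) averaged 33.4 ± 22.2 CPM without Cre and rose to 312 ± 124 CPM, with 18.7 ± 3.77 CPM in the Controls. With Cre-negative as the reference this was a log2 fold change of 3.22 ± 0.50 (adjusted p = 0.000405), and with Control 4.06 ± 0.89 (adjusted p = 0.0596). Ephx1, an epoxide hydrolase gene, had 1 count over the 7 Cre-negative and 395 over the 5 Dnmt1cKO libraries (adjusted p = 0.0212), most of them in Dnmt1cKO 1 at 75.1 CPM, and 0 in Dnmt1cKO 5. Of 13 tested regulators of p53, 0 were called by edgeR, and the median log2 fold change was -0.46, against -0.04 over all tested genes. At an unadjusted p under 0.05, 1 was lower, and the share of all genes lower by that rule is not given. It was Trp63, the p53 family member of basal epithelium, with means of 178 ± 82.8 and 84.2 ± 45.9 CPM for Cre-negative and Dnmt1cKO (adjusted p = 0.255). Next by p were Ppm1d, a phosphatase that switches p53 signalling off, at 13 ± 14 and 2.35 ± 3.31 CPM (adjusted p = 0.487), and Rfwd2, a ubiquitin ligase gene, at 130 ± 26.1 and 94.4 ± 28.8 CPM (adjusted p = 0.595).

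Paralogs of the members and genes downstream of p21 gave no calls against Cre-negative, where 0.915% of all tested genes rose and 0.184% fell. Of 11 tested paralogs 0 were called and 0 had an unadjusted p under 0.05 by edgeR, with a median log2 fold change of 0.36, against -0.04 over all tested genes. The smallest p belonged to Cdkn1b, the p27 inhibitor gene, with means of 79.5 ± 25.3 and 133 ± 68.5 CPM (adjusted p = 0.386). Of 18 cell cycle genes that p21 is known to lower, 0 were called and 0 had an unadjusted p under 0.05 against Cre-negative, with 11 positive log2 fold changes and a median of 0.11. Ccna2, cyclin A2, had 89.5 ± 34.6 and 40.4 ± 36.4 CPM (adjusted p = 0.379), Ccnb2, cyclin B2, 63.1 ± 24.2 and 102 ± 11.9 CPM (adjusted p = 0.457), and Birc5, survivin, 288 ± 108 and 412 ± 140 CPM (adjusted p = 0.473). The summed level of the 18 genes was 1444 to 2775 CPM in Cre-negative and 1994 to 2734 CPM in Dnmt1cKO libraries.

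The genes whose pattern over the 14 libraries was most like that of the 9 targets were found by Pearson correlation of log2 CPM with the mean of their standardised levels. They were Tmem87a and 9930111J21Rik1 (r = 0.89 each), Pmaip1 (0.88), Man1c1 (0.87) and Psma8 (0.86). Most like Cdkn1a alone were Armc10 and Cmah (0.87 each), Csnk1g1 (0.83), and Zrsr1 and Adtrp (0.81 each). The libraries fall into groups that differ in these genes, so the correlations are a description with no test. Adtrp, for example, averaged 31.7 ± 20.4 CPM without Cre and 237 ± 116 CPM in the Dnmt1cKO group (log2 fold change 2.90, adjusted p = 0.00155), while Tmem87a had 82.8 ± 16.1 and 117 ± 16.3 CPM (0.50, adjusted p = 0.545).

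**Figure D5:**
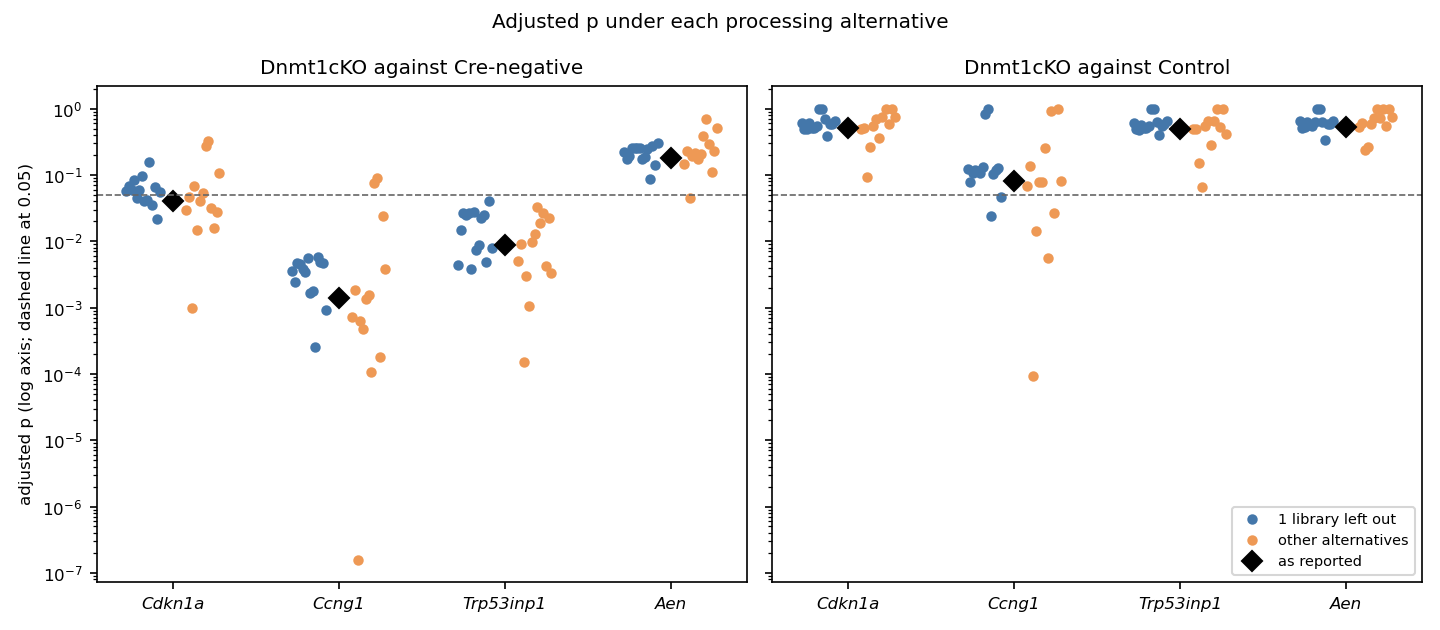
Adjusted p (log axis) of 4 genes in both Dnmt1cKO comparisons as reported, with 1 library left out, and under the other settings. The dashed line is at 0.05, and all points of Trp53inp1 against Cre-negative lie below it while those of Cdkn1a lie on both sides.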

How the data were processed

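Polyadenylated RNA was measured in 14 libraries. The deposited values are expected counts from RSEM, 1 per gene symbol and library, without scaling for depth. Per the submitters' processing notes, the tools were RSEM 1.2.3, Bowtie 0.12.9 and bcl2fastq 2.17.1.14, on mm10. The annotation and strand setting are not given in the sources used here, so reads of Cdkn1a and its antisense partner may not be separable. Non-whole values made up 7.31% to 21.9% per library.

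Expected counts were rounded, filtered with filterByExpr and scaled by TMM, and the 3 groups were tested in 1 fit with the quasi-likelihood test of edgeR 4.0.16 (R 4.3.3). A call means a Benjamini-Hochberg adjusted p below 0.05 over 13011 genes. Intervals of log2 fold changes are 95% intervals from the fit. The steps were tested on simulated counts with planted changes. The simulation held no difference between libraries in stroma or in Dnmt1 deletion, so it says nothing about these. Libraries are pooled lysates, so p-values measure the spread between lysates, and counting intervals and the floor of 3 counts (0.228 to 1.19 CPM before TMM scaling) cover counting error only. No batch is labelled. The highest correlation between 2 libraries was 0.882, and none was treated as a duplicate.

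The members, the lists and the named-gene rule (members, called list genes or up to 3 of smallest p per list, 5 most alike) were chosen with earlier results of these data known. Alternatives were DESeq2 1.42.0, limma-voom (limma 3.58.1), scaling by RLE or by the upper quartile, no filter and a minimum count of 30, fewer groups or libraries, a replicate block, a stroma covariate, pooled reference groups and each library left out.

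Gene positions and exon lengths came from GENCODE M21. BLAST+ 2.17.0 found stretches of 105 to 165 bases at 95% identity or more shared by transcripts of Cdkn1a with 19 other genes, of Aen with 16 and of Zmat3 with 1, so that some of their reads could have been split.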

Additional observations from a re-analysis of the deposited data

How the results depend on the processing

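Of the 10 genes, 3 were called against Cre-negative, and the count was 2 to 4 under each alternative except the replicate block (1 gene, Trp53inp1), and 2 to 3 with 1 library left out. Against Control the count of 0 became 1 (Ccng1) with DESeq2, limma-voom, the stroma covariate and without the 3 shallowest libraries, and ran from 0 to 1 with 1 library left out. It was 0 under every setting for Control against Cre-negative. Over all genes DESeq2 called 320 higher and 229 lower genes against Cre-negative, limma-voom 162 and 292, and edgeR 119 and 24. Limma-voom moved the median log2 fold change of all genes against Cre-negative from -0.04 to -0.34. These causes were not tested.

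Over the 9 same-numbered pairs of libraries r of the deviations from the group means ran from -0.18 to 0.12. Of these 1 pair (Control 1 with Cre-negative 1) was over 0.1. The deviations of the 2 Controls mirror each other by construction, and differently numbered pairs were not compared. These values therefore cannot exclude pairing. The main fit took the libraries as unpaired, and the replicate block is given as an alternative. With the replicate block, Ccng1 (log2 fold change 1.52, adjusted p = 0.0743) and Cdkn1a (2.85, 0.319) were not called. Cdkn1a was also not called with limma-voom (adjusted p = 0.069) or in the fit of the 2 groups alone (0.0532).

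Signs turned only for genes without a call in the comparison concerned. Against Cre-negative, the log2 fold change of Sesn1 was -0.48 with limma-voom, -0.14 with the block, -0.73 with the stroma covariate, -0.05 against the pooled reference, -0.48 without the 3 highest-stroma libraries and -0.24 without Dnmt1cKO 3 and 5. That of Sesn2 was -0.20 with limma-voom and -0.44 without those libraries, and that of Trp53 -0.21 with the block and -0.41 without Dnmt1cKO 3 and 5. Leaving out 1 library gave -0.21 to 0.30 for Sesn1, -0.10 to 0.66 for Sesn2 and -0.19 to 0.68 for Trp53. Against Control, Trp53 was at -0.13 with limma-voom, -0.16 with the block and -0.58 without Dnmt1cKO 3 and 5, and Sesn2 at -0.31, -0.11 and, without the highest-stroma libraries, -0.41. Leaving out 1 library gave -0.33 to 0.54 for Trp53 and -0.83 to 0.21 for Sesn1. For Control against Cre-negative, Sesn2 was at 0.10 with limma-voom and 0.50 with the block, and Trp53 at -0.05 with the block. With the stroma covariate Cdkn1a was at 0.73, Mdm2 at -0.02, Sesn1 at -0.67 and Btg2 at 0.49. Without the highest-stroma libraries Trp53 was at -0.08, Trp53inp1 at -0.05 and Sesn1 at -0.11. Leaving out 1 library gave -0.07 to 0.37 for Trp53, -0.75 to 0.13 for Cdkn1a, -0.05 to 0.37 for Trp53inp1 and -0.11 to 0.95 for Sesn1. With 2 Controls, leaving out 1 assumes that the other varies like the remaining groups.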
